A study of Mus musculus with 10 samples.

Results

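The 44 collagen genes measured in mouse gastrocnemius, a mixed but mostly fast calf muscle, were compared between mice fed added L-carnitine and mice fed the same diet without it. Members were all genes whose platform symbol reads Col, a number, a and a number, on probe sets that carry exactly 1 gene symbol. Of the 22180 genes with such probe sets, 44 met this rule through 47 probe sets, and for the 3 genes with more than 1 the brightest was kept. By chain type 11 are fibrillar, 6 belong to basement membrane type IV collagen, and 27 are of other kinds.

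The arrays are 10 Affymetrix Mouse Gene 2.0 ST arrays of total RNA, 1 per mouse, from male NMRI mice, an outbred stock. The labels give 5 mice as control, on a natural ingredient diet with under 5 mg carnitine per kg, and 5 as carnitine, on that diet with 1000 mg L-carnitine added per kg. All mice came to the study at 3 weeks of age, and sampling took 10 mice per diet at each of 3 ages, namely 9, 15 and 18 months. Mice were kept 5 per cage. Neither the age nor the cage of an array mouse is labelled, so both may differ between arrays and were not used. Effects of either cannot be told apart from diet here. The study asked how lifelong carnitine feeding affects the muscle transcriptome at advanced age.

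Collagens are the main structural proteins of the extracellular matrix. Their chains wind into helices in which glycine recurs at regular spacing, and a helix may hold 1 kind of chain, as in type III, or partner chains, such as α1 and α2 in type I, α1 and α2 in type IV, and α1, α2 and a longer α3 chain in type VI. In muscle, fibrillar collagens I, III and V carry load in the connective tissue sheaths, type IV forms the sheet that wraps each fibre and capillary, and type VI links that sheet to the surrounding fibrils. Interstitial fibroblasts make most of the fibrillar and type VI chains, while muscle fibres and vessel cells also make type IV.

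Values are the deposited RMA log2 values, and differences are carnitine minus control. The median probe set level over all arrays was 5.80; 37 of the 44 collagen genes averaged at or above it and 7 below, where the signal is weak. Probe sets differ in affinity, so levels are compared between mice and not between genes. The fibre genes Acta1, for skeletal actin, and Ckm, for muscle creatine kinase, stood at 13.81 ± 0.06 and 13.29 ± 0.08 in control (SD, n = 5). The control array with replicate number 5 differed from the rest: the spread of its values between the quartiles was 2.20, where the others had 2.39 to 2.59, and its median was 5.96, where the others had 5.72 to 5.86. Counts of collagen genes by direction are therefore given with and without it.

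No collagen gene passed the test between the diets. In limma, with Benjamini-Hochberg adjustment over all 22180 genes, 0 of 44 collagen genes passed an adjusted p of 0.05, as did 0% of all genes, and the smallest adjusted p of a collagen gene was 0.71. At an unadjusted p below 0.05 stood 1 collagen gene, Col16a1, which was lower in carnitine, and 0 were higher. Over all genes 3.83% were lower and 3.14% higher at that level, so the collagen count was near the background. The control and carnitine values overlapped in all 44 genes, against 1.11% of all genes with groups that did not overlap.

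The differences ran from -0.22 to 0.19 on the log2 scale. The 95% confidence intervals of all 44 lay between -0.53 and 0.49, which in folds is 0.692 to 1.40. Each gene's own interval was narrower than these extremes, and its half-width had a median of 0.24 and ran from 0.17 to 0.35. Since the tissue was measured in bulk, fewer cells of a type and less RNA per cell cannot be told apart.

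**Figure D1:**
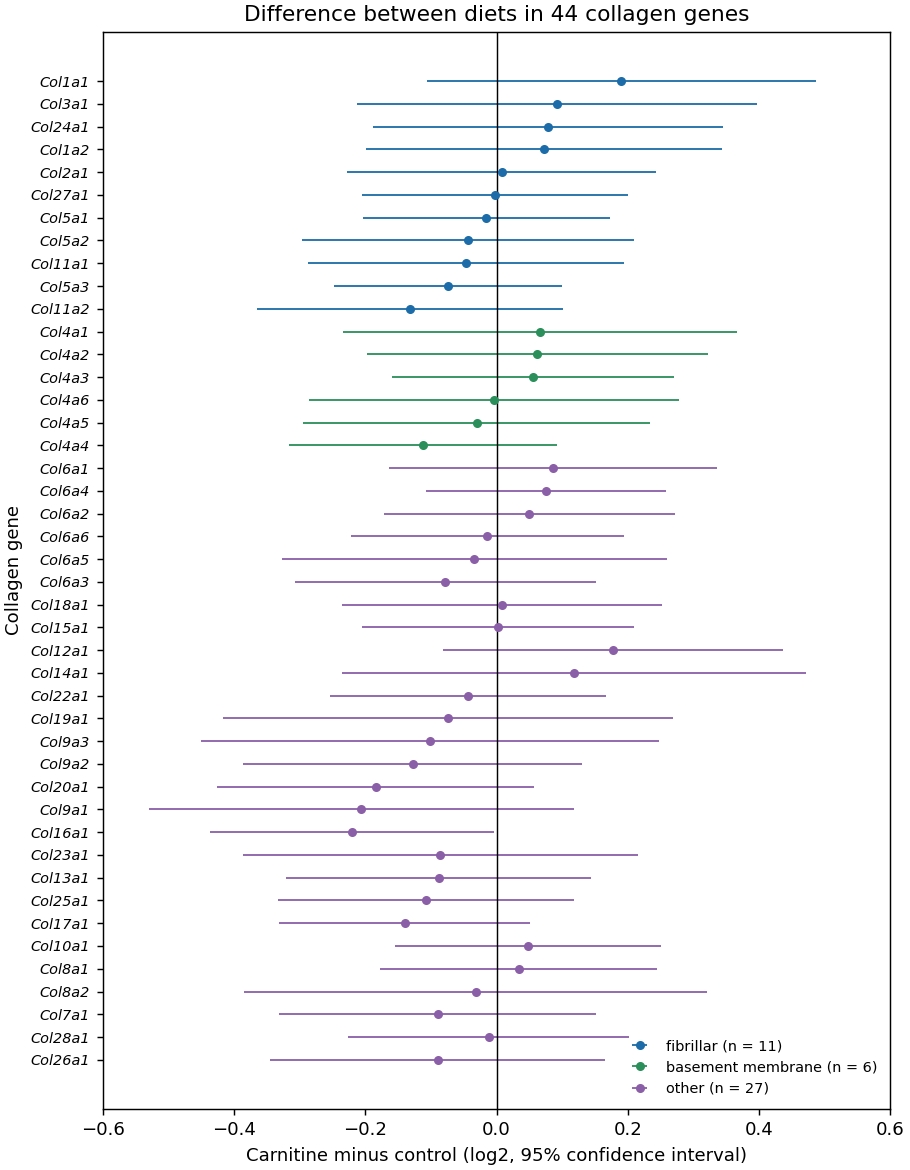
Difference between diets in each of the 44 collagen genes, as carnitine minus control on the log2 scale (x axis), ordered by chain type and coloured by class; points are limma estimates and lines their 95% confidence intervals (n = 5 per group). The points lie between -0.22 and 0.19, and 43 of 44 intervals include 0, the exception being Col16a1.

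Of the 44 genes, 17 had a positive and 27 a negative difference, against 47.5% positive and 52% negative over all genes. The median difference was -0.02 over the collagen genes and -0.01 over all genes. Without control replicate 5 the count was 30 of 44 (68.2%), against 51.0% of all genes. Median centring, which adds 0.05 to the difference of every gene, gave 28 (63.6%) against 62.0% of all genes, and cyclic loess gave 18 (40.9%) against 50.7%.

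Over all genes the share of positive differences rose with signal. Over collagen genes it did not rise steadily, with or without control replicate 5. Among all genes in the top quartile of mean signal 81.3% had a positive difference, as had 7 of the 10 collagen genes there, with medians of 0.09 and 0.06. In the next quartile 53.6% of all genes and 5 of 19 collagen genes were positive, and in the one below it 29.7% and 5 of 15. Without control replicate 5 the shares of all genes were 67.9%, 53.8% and 46.0%, and the collagen counts 7 of 10, 11 of 19 and 12 of 15.

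Among the fibrillar chains, 5 of 11 had a positive difference, and 8 without control replicate 5. Their median was -0.002, with 0.04 without that mouse, 0.05 after median centring and -0.01 after cyclic loess. Col1a1 encodes the α1 chain of type I collagen, the most abundant protein of tendon and muscle sheath. Its values were 8.28, 8.37, 8.26, 7.97 and 8.20 in control replicates 1 to 5 and 8.82, 8.43, 8.61, 8.11 and 8.06 in carnitine replicates 1 to 5. Carnitine replicates 1, 2 and 3 lay above every control, while 4 and 5 lay inside the control range, and the spread was wider in carnitine (SD 0.32) than in control (SD 0.15). The difference of 0.19 (SE 0.14, exact permutation p = 0.286, limma adjusted p = 0.73) was the highest of the 44, and it was 0.09 without carnitine replicate 1 and 0.28 without carnitine replicate 5.

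Col1a2, the partner chain in type I collagen, was at 7.83, 8.02, 7.79, 7.58 and 8.06 in control and 8.17, 8.02, 8.10, 7.57 and 7.78 in carnitine. Here the carnitine mice held both the highest and the lowest value of all 10, and the difference was 0.07 (SE 0.13, limma adjusted p = 0.88). The sign turned after cyclic loess, to -0.01. A dimmer probe set of Col1a2, with a mean of 6.03, gave a difference of 0.24, so the gene's 2 probe sets had the same sign but unlike size.

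Col3a1, whose chains form the thin fibrils that run with type I, was at 7.65, 7.86, 7.49, 7.46 and 7.85 in control and 8.26, 7.74, 7.69, 7.69 and 7.39 in carnitine. Carnitine replicate 1 was the highest, the next being a control at 7.86, and without it the difference went from 0.09 (SE 0.14, limma adjusted p = 0.87) to -0.03. Col5a1, a chain of the type V collagen that limits fibril width, was at 7.06, 7.04, 7.11, 6.96 and 7.31 in control and 7.08, 7.09, 7.11, 7.16 and 6.96 in carnitine. The carnitine mice lay within the control range, and the difference of -0.02 (SE 0.09, exact permutation p = 0.905, limma adjusted p = 0.97) was 0.03 after median centring.

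Col5a3, another type V chain, was at 7.61, 7.45, 7.53, 7.56 and 7.55 in control and 7.51, 7.53, 7.47, 7.53 and 7.29 in carnitine. Apart from the low carnitine replicate 5 the groups cover much the same values, with a difference of -0.07 (SE 0.08, exact permutation p = 0.206, limma adjusted p = 0.81). Col11a2, a fibrillar chain best known from cartilage, was at 6.51, 6.46, 6.74, 6.86 and 7.02 in control and 6.53, 6.54, 6.56, 6.65 and 6.65 in carnitine. The carnitine mice lay within the wider control range, and the difference of -0.13 (SE 0.11, exact permutation p = 0.294, limma adjusted p = 0.76) was -0.06 without control replicate 5, the highest mouse. The other fibrillar genes, Col2a1, Col5a2, Col11a1, Col24a1 and Col27a1, differed by -0.05 to 0.08.

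The Col1a2 and Col3a1 promoters are shown because these chains varied together across mice with Col1a1, Col3a1 by Pearson's r only, as described below. No link between the sequences and the values was tested. RefSeq promoter windows were matched by symbol for 35 of the 44 genes (38 windows, build GRCm38.p6), and the 150 bases before each start are printed 5′ to 3′ with matches on either strand to the CCAAT box, to the TATA box written as TATAAA, and to the GC box written as GGGCGG, in capitals. The Col1a2 window is chr6:4505468-4505617 and the Col3a1 window chr1:45311388-45311537, both on the plus strand.
Col1a2: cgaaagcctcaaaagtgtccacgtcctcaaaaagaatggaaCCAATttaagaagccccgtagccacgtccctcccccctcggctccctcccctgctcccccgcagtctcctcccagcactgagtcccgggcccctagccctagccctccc
Col3a1: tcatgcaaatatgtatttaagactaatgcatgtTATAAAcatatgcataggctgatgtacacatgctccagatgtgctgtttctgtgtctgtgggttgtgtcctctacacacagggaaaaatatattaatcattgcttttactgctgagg
Over the 250 bases before the start, the CCAAT box was in 13 of the 38 collagen windows (34.2%) against 33.8% of all 32851 windows, and the TATAAA match in 5 (13.2%) against 12.4%. The GGGCGG match was in 22 (57.9%) against 32.7%. No motif is contained in another, and these are letter matches anywhere in a fixed window. Whether a match works as a promoter element was not tested.

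The basement membrane chains had 3 positive and 3 negative differences with a median of 0.03, and 5 were positive without control replicate 5. Col4a1 and Col4a2 encode the α1 and α2 chains that make up most type IV collagen. Col4a1 was at 8.23, 7.85, 7.81, 7.76 and 7.59 in control and 8.26, 7.96, 7.82, 8.02 and 7.51 in carnitine. The ranges nearly coincide, and the difference was 0.07 (SE 0.14, exact permutation p = 0.706, limma adjusted p = 0.90), with -0.01 after cyclic loess.

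Col4a2 was at 7.71, 7.23, 7.44, 7.40 and 7.23 in control and 7.61, 7.52, 7.54, 7.57 and 7.08 in carnitine. Of the carnitine mice, 4 lay between 7.52 and 7.61, and replicate 5 was the lowest of all 10. The difference was 0.06 (SE 0.12, exact permutation p = 0.683, limma adjusted p = 0.90) and 0.16 without that mouse.

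The Col4a1 and Col4a2 genes lie head to head, and RefSeq puts their starts so close that the transcripts overlap by 22 bases (GRCm38.p6, chr8:11312805-11312826, plus strand shown, with a GGGCGG match in capitals). The stretch is printed because the transcripts of both genes start in it.
Col4a1 and Col4a2: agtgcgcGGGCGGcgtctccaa
Col4a5 and Col4a6 are also divergent neighbours, on the X chromosome, with 1342 bases between their starts. Their chains, with those of Col4a3 and Col4a4, replace the common type IV chains in particular basement membranes such as that of the kidney glomerulus. In muscle these 4 genes averaged between 5.81 and 6.06 in either group, close to the median probe set level, and differed by -0.11 (Col4a4) to 0.06 (Col4a3).

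Type VI collagen forms beaded filaments next to the muscle fibre, and loss of its chains causes congenital muscular dystrophy in humans. Col6a1 was at 8.05, 8.13, 8.21, 7.86 and 8.33 in control and 8.40, 8.22, 8.28, 8.28 and 7.83 in carnitine. Col6a2 was at 7.75, 7.83, 7.77, 7.63 and 7.72 in control and 8.0, 7.85, 7.84, 7.83 and 7.43 in carnitine. In both genes carnitine replicate 1 was the highest and carnitine replicate 5 the lowest of the 10 mice. The differences were 0.09 (SE 0.12) and 0.05 (SE 0.10), with limma adjusted p of 0.85 and 0.90, and after cyclic loess they were -0.003 and -0.02. A second, dim probe set of Col6a1, with a mean of 5.39, gave -0.04.

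Col6a3, the long α3 chain, was at 7.27, 7.37, 7.75, 7.76 and 7.49 in control and 7.47, 7.57, 7.46, 7.32 and 7.43 in carnitine. The carnitine mice lay inside the control range, with a difference of -0.08 (SE 0.11, limma adjusted p = 0.85). Col6a4, Col6a5 and Col6a6 can stand in for the α3 chain, and the first and second of these averaged below the median probe set level. Col6a4 was at 5.10, 5.29, 5.24, 5.24 and 5.43 in control and 5.34, 5.39, 5.36, 5.27 and 5.32 in carnitine. Here the carnitine mice lay within the control range, with a difference of 0.08 (SE 0.09, exact permutation p = 0.230, limma adjusted p = 0.82), and Col6a5 and Col6a6 differed by -0.03 and -0.01.

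The collagens that sit on the surface of fibrils (FACIT) held the 3 lowest differences, in Col16a1, Col9a1 and Col20a1, with 7 of 9 negative and a median of -0.10. Without control replicate 5, 5 of 9 were negative and the median was -0.0075. Col16a1, a minor chain of this kind, was at 6.29, 6.22, 6.37, 6.46 and 6.70 in control and 6.07, 6.13, 6.20, 6.31 and 6.23 in carnitine. The carnitine values reached from below all controls into the lower part of their range, and the difference was -0.22 (SE 0.10, exact permutation p = 0.048, limma adjusted p = 0.71). Without control replicate 5 it was -0.15. The unadjusted p of Col16a1 was no longer below 0.05 without control replicate 3, 4 or 5, without carnitine replicate 1, 2, 3 or 5, after median centring or with array weights.

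Col20a1 was at 6.56, 6.52, 6.49, 6.74 and 6.79 in control and 6.51, 6.18, 6.60, 6.66 and 6.23 in carnitine. Carnitine replicates 2 and 5 lay below every control and the others among them, with a difference of -0.18 (SE 0.11, exact permutation p = 0.167, limma adjusted p = 0.72). Col9a1 and Col9a2 encode chains of the type IX collagen of cartilage. Col9a1 was at 5.80, 5.71, 5.63, 6.05 and 6.43 in control and 5.65, 5.57, 5.57, 6.11 and 5.69 in carnitine, a difference of -0.21 (SE 0.15, exact permutation p = 0.262, limma adjusted p = 0.73). Col9a2 was at 8.06, 7.90, 7.88, 8.15 and 8.46 in control and 7.66, 8.01, 8.07, 7.98 and 8.09 in carnitine, a difference of -0.13 (SE 0.12, exact permutation p = 0.413, limma adjusted p = 0.78). Control replicate 5 was the highest of the 10 mice for all these 3 genes, and without it the Col9a1 and Col9a2 differences were -0.08 and -0.04.

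Col12a1, which bridges fibrils in tendon and muscle sheath, was at 5.35, 5.55, 5.59, 5.54 and 5.40 in control and 5.87, 5.58, 5.98, 5.31 and 5.58 in carnitine, below the median probe set level. Carnitine replicates 1 and 3 lay above every control and replicate 4 below every control. The difference was 0.18 (SE 0.12, exact permutation p = 0.254, limma adjusted p = 0.73) and 0.27 without carnitine replicate 4.

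Col22a1 marks the junction between muscle and tendon. It was at 6.66, 6.43, 6.74, 6.72 and 6.82 in control and 6.61, 6.69, 6.82, 6.54 and 6.49 in carnitine. The carnitine values lay within the control range, with a difference of -0.04 (SE 0.10, limma adjusted p = 0.91) that was 0.006 after median centring. The remaining FACIT genes Col14a1, Col19a1 and Col9a3 differed by 0.12, -0.07 and -0.10.

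Col15a1 and Col18a1 encode multiplexins of the basement membrane zone, and Col18a1 is the source of endostatin. Col15a1 was at 6.82, 6.71, 6.63, 6.74 and 6.84 in control and 6.93, 6.84, 6.78, 6.72 and 6.48 in carnitine. The carnitine mice held the highest and the lowest value, while the means were alike, with a difference of 0.002 (SE 0.10, limma adjusted p = 0.99) that was -0.01 after cyclic loess. Col18a1 differed by 0.008.

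All 4 membrane-spanning collagens had negative differences, 3 of 4 without control replicate 5. Col17a1, a chain of the junction between epithelia and their basement membrane, was at 6.01, 6.09, 6.10, 6.24 and 6.16 in control and 5.92, 5.92, 5.88, 6.19 and 5.99 in carnitine. Of the carnitine mice, 4 lay below every control and replicate 4 lay among them, and the difference was -0.14 (SE 0.09, exact permutation p = 0.095, limma adjusted p = 0.72). Col25a1 and Col23a1 differed by -0.11 and -0.09. Col13a1 acts at the neuromuscular junction. Its values of 6.76 ± 0.22 in control and 6.67 ± 0.11 in carnitine overlapped (difference -0.09, SE 0.11).

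The short chain collagens Col8a1, Col8a2 and Col10a1 differed by 0.03, -0.03 and 0.05. Col10a1, the chain of hypertrophic cartilage, was at 4.92, 4.93, 4.89, 5.12 and 5.13 in control and 4.87, 4.98, 5.16, 5.03 and 5.19 in carnitine, below the median probe set level. The groups overlapped over nearly their whole ranges (SE 0.09, exact permutation p = 0.563, limma adjusted p = 0.90). The anchoring fibril gene Col7a1 and the genes Col26a1 and Col28a1 differed by -0.09, -0.09 and -0.01.

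**Figure D2:**
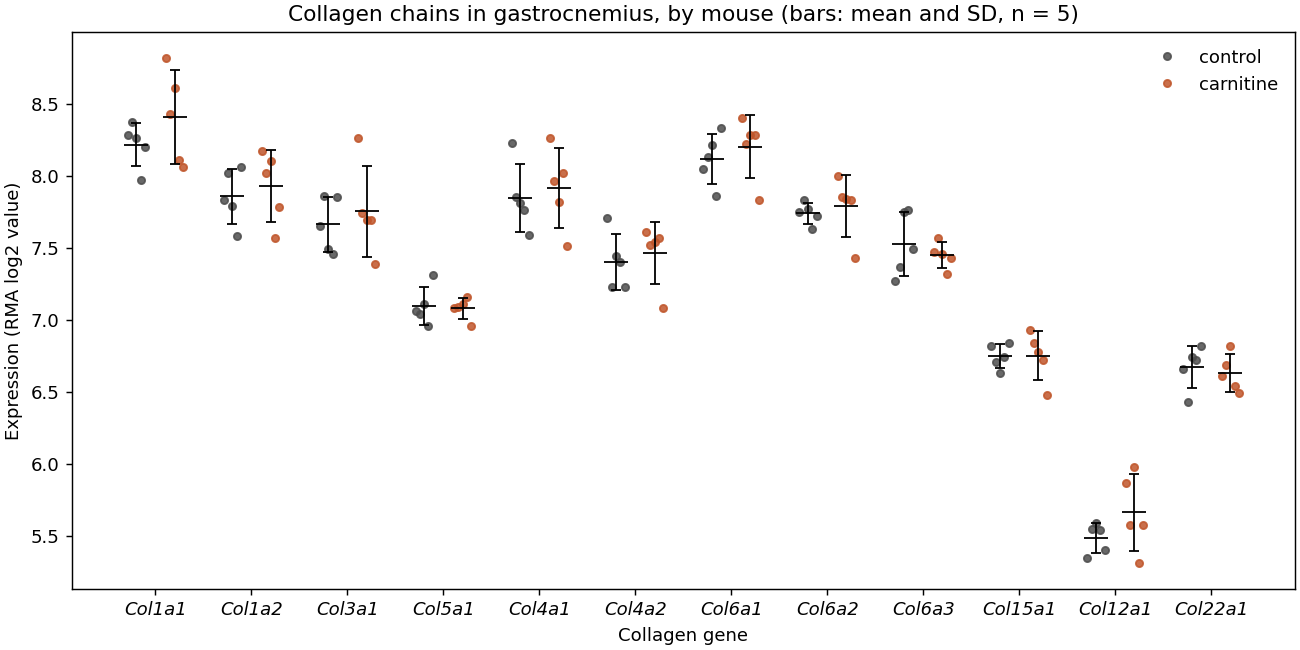
Expression of 12 collagen genes in each mouse (RMA log2 value, y axis) for control (grey) and carnitine (orange), with the mean and SD of 5 mice as black bars; within a group the points run from replicate 1 at the left to 5 at the right. The groups overlap in every gene, and the carnitine spread is widest where replicate 1 is high and replicate 5 is low, as in Col3a1.

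Over the 10 mice the values of a collagen gene spanned 0.32 (Col5a3) to 1.05 (Col8a2), while the group means differed by at most 0.22. Over the 44 genes the mean deviation from each gene's own mean was 0.21 in control replicate 5 and lay between -0.06 and 0.03 in the other 9 mice. Control replicate 5 was the highest of the 10 arrays for 23 of 44 collagen genes, in Col22a1 level with carnitine replicate 3, 22 of these outside the top signal quartile, and for 28.8% of all genes. It was the lowest for 0 collagen genes and for 22.8% of all genes. In FACIT genes its mean deviation was 0.37 and in fibrillar genes 0.14. The array's high median and narrow spread move with these values, and their part in them was not tested.

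Carnitine replicate 1 showed another pattern. It was the highest array for 8 collagen genes, 6 of them among the 10 brightest (Col1a1, Col1a2, Col3a1, Col4a1, Col6a1 and Col6a2), and the lowest for 13. Over all genes it was the highest for 7.53% and the lowest for 12.8%. Carnitine replicate 5 was the lowest array for 7 collagen genes, beside Col5a1 where it was level with control replicate 4, and the highest for 2, while over all genes it was the lowest for 7.73% and the highest for 8.71%.

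**Figure D3:**
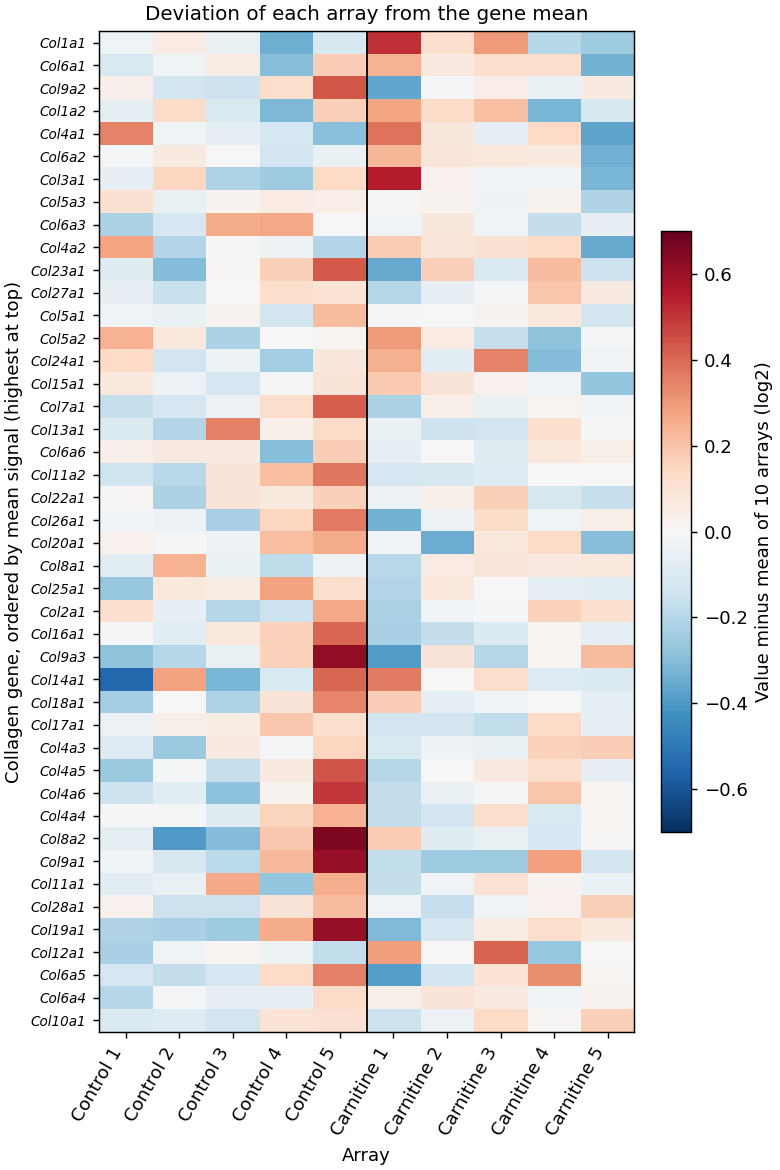
Deviation of each array (x axis, control left of the line and carnitine right) from the gene's mean over 10 arrays, in log2 units, for the 44 collagen genes ordered by mean signal from the top (y axis); red is above and blue below the mean. The column of control replicate 5 is red in most of the lower rows (mean deviation 0.21), and that of carnitine replicate 1 is red in Col1a1, Col1a2, Col3a1, Col4a1, Col6a1 and Col6a2.

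Some chains that assemble together varied together across the mice, and others did not. Correlations were taken over 10 mice for 15 pairs of chains, with permutation p values from 100000 resamples and Benjamini-Hochberg adjustment over the 15 pairs, and 5 pairs passed 0.05 for Pearson's r and 3 of these also for Spearman's rho. All pairs share the arrays and their scaling. Without control replicate 5, r in these 5 pairs lay between 0.82 and 0.92. Col4a1 and Col4a2, the partners in type IV collagen, had r = 0.88 (permutation adjusted p = 0.0075) and a Spearman rho of 0.87 (adjusted p = 0.015). Without the 2 mice farthest from the Col4a1 median r was 0.84, and with each diet group centred on its mean it was 0.88.

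Col1a1 and Col1a2 had r = 0.83 (permutation adjusted p = 0.0089) and rho = 0.84 (adjusted p = 0.019), with r = 0.77 without the 2 farthest mice and 0.84 within diets. Col1a1 and Col3a1, chains of different collagen types, had r = 0.78 (permutation adjusted p = 0.027). Their rho = 0.70 (permutation adjusted p = 0.106) did not pass, and r was 0.63 without the 2 farthest mice. The same held for Col6a1 and Col6a2, with r = 0.84 (permutation adjusted p = 0.0075), rho = 0.67 (adjusted p = 0.110) and r = 0.51 without the 2 farthest, which were control replicate 4 and carnitine replicate 5. Omission of the farthest mice narrows the range, which by itself tends to lower r. For this pair r was 0.83 within diets, 0.92 without control replicate 5 and 0.88 after cyclic loess.

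Col4a5 and Col4a6, the divergent X-linked neighbours, had r = 0.93 (permutation adjusted p = 0.0058) and rho = 0.87 (adjusted p = 0.015), and r = 0.82 without control replicate 5, which was highest in both. Both genes lie near the median probe set level.

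The other 10 pairs did not pass. Col6a1 and Col6a3 had r = -0.16 (permutation adjusted p = 0.73), Col5a1 and Col5a2 r = -0.21 (adjusted p = 0.71) and Col4a3 and Col4a4 r = 0.23 (adjusted p = 0.70), with -0.02 without control replicate 5. Col8a1 and Col8a2 had r = -0.53 (permutation adjusted p = 0.21), with -0.74 without control replicate 5. Col11a1 with Col11a2 had r = 0.34 (permutation adjusted p = 0.50), with -0.07 without that mouse. Col9a1 and Col9a2 had r = 0.69 (permutation adjusted p = 0.074) and 0.31 without control replicate 5. Between chains of different collagen types, where Col1a1 with Col3a1 had passed for r, the other pairs did not. Col1a1 had r = 0.55 with Col4a1 (permutation adjusted p = 0.21), 0.12 with Col22a1 (adjusted p = 0.74) and 0.15 with Col5a1 (adjusted p = 0.73). Without control replicate 5 these r values were 0.54, 0.21 and 0.43. Col15a1 had r = 0.42 with Col18a1 (adjusted p = 0.38).

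**Figure D4:**
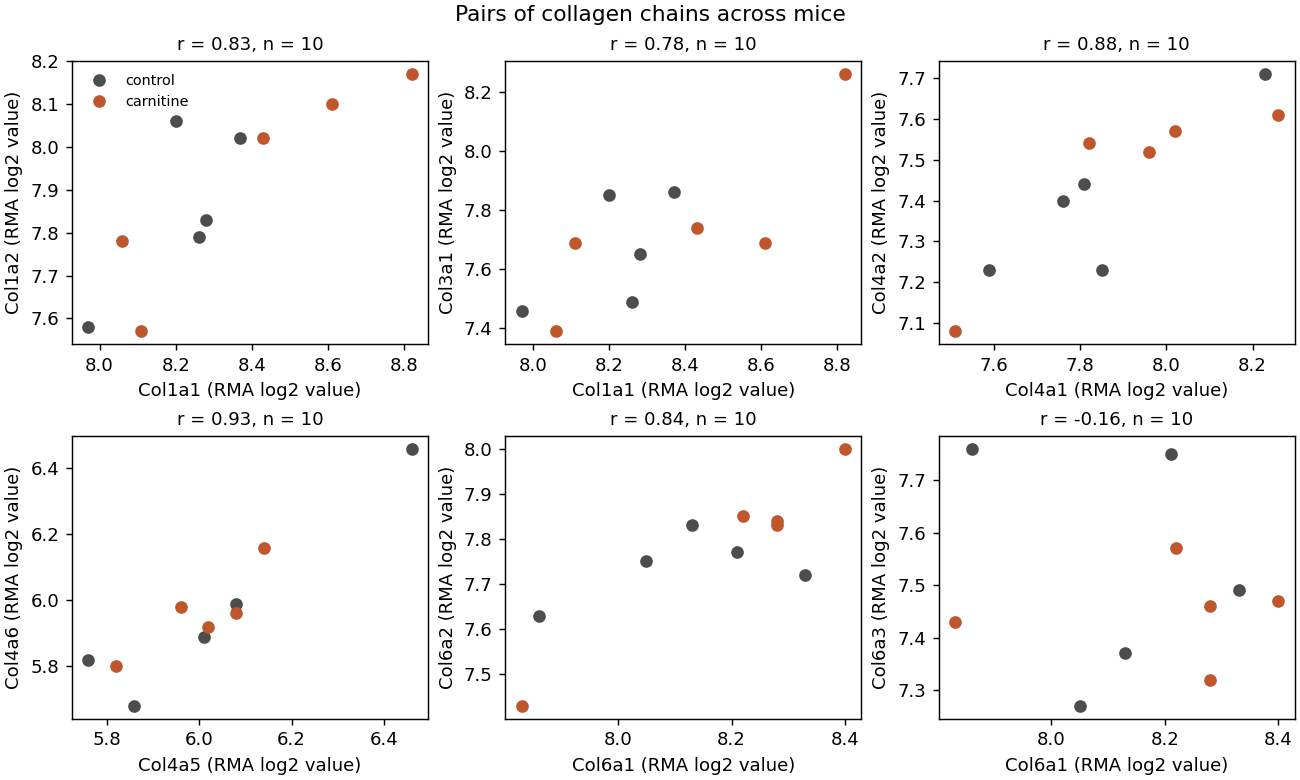
Expression of pairs of collagen chains in the same mouse (RMA log2 values on both axes), 1 point per mouse, control grey and carnitine orange, with Pearson's r over 10 mice above each panel. Control and carnitine mice lie along the same trend for Col1a1 with Col1a2 (r = 0.83) and Col4a1 with Col4a2 (r = 0.88), while Col6a1 with Col6a3 shows none (r = -0.16).

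Genes that make, assemble, bind and degrade collagen were read from fixed lists. None of their members passed limma's adjusted p of 0.05, and the smallest adjusted p among them was 0.71. Their counts of positive differences stand beside 47.5% of all genes and 62.5% of those at or above the median probe set level. In the top quartile of mean signal, where P4hb, Nid1 and other members of these lists lie, the share was 81.3%. The lists were not matched to all genes for signal. Their counts at an unadjusted p below 0.05 stand beside the 3.14% higher and 3.83% lower of all genes. Of 16 genes that fold and modify chains, 14 of them at or above that level, 13 had a positive difference, with 10 after cyclic loess and 10 without control replicate 5. The median of 0.10 was 0.02 after cyclic loess, and 0 had an unadjusted p below 0.05. The members with the smallest p were Colgalt2, which adds galactose to hydroxylysine, at 0.28 (SE 0.13), Crtap, part of the proline 3-hydroxylation complex, at 0.25 (SE 0.12), P4hb, a subunit of prolyl 4-hydroxylase, at 0.14 (SE 0.09), and the lysyl hydroxylase gene Plod1 at 0.14 (SE 0.09).

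Of 11 genes for propeptide removal and crosslinking, 9 were positive with a median of 0.02 and 0 at an unadjusted p below 0.05. Lox, the lysyl oxidase that crosslinks fibrils, had means of 5.34 ± 0.42 and 5.64 ± 0.23, a difference of 0.30 (SE 0.18), and Bmp1, the C-proteinase, differed by 0.10 (SE 0.10). Tll1, related to Bmp1, stood at -0.17 (SE 0.09) and Loxl4 at -0.12 (SE 0.09).

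Among 13 genes of collagen breakdown and its inhibitors, 7 were positive and 6 negative, with 1 in each direction at an unadjusted p below 0.05. Fap, a protease of activated fibroblasts, had means of 6.96 ± 0.27 and 7.26 ± 0.17 and a difference of 0.30 (SE 0.13), and the collagenase gene Mmp13, at a weak signal, 4.00 ± 0.22 and 3.72 ± 0.15 (difference -0.28, SE 0.11). The gelatinase gene Mmp2 differed by 0.24 (SE 0.14) and its inhibitor Timp2 by 0.23 (SE 0.16). Of 8 collagen receptor genes, 6 were positive, with the discoidin receptor Ddr2 at 0.21 (SE 0.15) and the integrin α1 gene Itga1 at 0.13 (SE 0.13), while the platelet receptor Gp6, also dim, was at -0.32 (SE 0.14) with an unadjusted p below 0.05. Lair1, an inhibitory receptor of leukocytes, differed by -0.17 (SE 0.14).

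Of 10 partner genes of the basement membrane, 9 were positive, 6 after cyclic loess, and 1 had an unadjusted p below 0.05. This was Lama4, the laminin α4 chain of vessels and fibres, at 7.63 ± 0.22 in control and 7.95 ± 0.21 in carnitine (difference 0.31, SE 0.12). Lamb1 differed by 0.19 (SE 0.11), and the nidogens Nid1 and Nid2 by 0.16 each (SE 0.13 and 0.09). In the TGF-beta axis, the main inducer of collagen genes in fibroblasts, 9 of 12 were positive, 6 after cyclic loess, with 1 in each direction at an unadjusted p below 0.05. Ccn2, a matricellular TGF-beta target, differed by 0.31 (SE 0.13), Ltbp2 by -0.23 (SE 0.10), Tgfbr1 by 0.22 (SE 0.16) and Smad2 by 0.15 (SE 0.09). Control replicate 5 was the lowest mouse for Tgfbr1, at 6.99, where the other controls had 7.33 to 8.04. It was also the lowest for Smad2, at 7.47, and the highest for Ltbp2, at 6.71, but neither for Ccn2.

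No marker of another cell type passed the adjusted threshold. The positive counts of all marker lists stand beside 47.5% of all genes and 62.5% of those at or above the median probe set level. In the top signal quartile the share was 81.3%. Negative counts stand beside 52% of all genes. Counts at an unadjusted limma p below 0.05 stand beside 3.14% higher and 3.83% lower of all genes. All 8 fibroblast markers were positive, also after cyclic loess and without control replicate 5, though the sign of Dpt rested on control replicate 4. Their mean ran from 7.58 to 8.40 over the control mice and from 7.96 to 8.46 over the carnitine mice, their median difference was 0.20, which was 0.12 after cyclic loess, and 0 had an unadjusted p below 0.05. Dcn, the proteoglycan decorin, and Lum, lumican, had the highest differences of the list at 0.36 (SE 0.22) and 0.37 (SE 0.23). Both were lowest of the 10 mice in control replicate 4, at 10.07 and 5.96. The other controls had 10.75 to 11.51 and 6.64 to 7.46. That mouse was also the lowest for Dpt and Gsn, and not for the rest of the list. Dpt was at 7.87, 8.77, 8.33, 7.24 and 8.77 in control, with a carnitine mean of 8.43.

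Of 7 tendon markers 5 were positive, 3 with an unadjusted p below 0.05, namely Chad at 0.48 (SE 0.20), Thbs4 at 0.44 (SE 0.18) and Fmod at 0.38 (SE 0.17), all with a limma adjusted p of 0.71. Tnmd differed by 0.25 (SE 0.12). Kera and the tendon transcription factor genes Scx and Mkx were named after their values were seen. They differed by 0.51 (SE 0.25), -0.07 (SE 0.10) and -0.03 (SE 0.08). The tendon marker mean ran from 6.33 to 6.73 in control and from 6.46 to 7.15 in carnitine. None of the 5 cartilage and bone markers reached the median probe set level, with the cartilage genes Acan at 5.36 and Cnmd at 5.47 in control, and their mean ran from 4.97 to 5.37 in control and from 5.00 to 5.12 in carnitine. The part of these markers in the collagen values was not tested.

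Of 7 endothelial markers 4 were positive, 7 after median centring and 3 after cyclic loess, with a mean from 7.96 to 8.73 in control and 8.24 to 8.75 in carnitine, and of 7 pericyte and smooth muscle markers 5, then 7 and 4, with a mean from 9.00 to 9.24 and from 9.13 to 9.26. The 5 adipocyte markers, 4 of them negative and 1 with an unadjusted p below 0.05, had means from 5.56 to 6.4 and from 5.64 to 6.10. Only 2 of 5 Schwann cell markers were measured, with means from 6.16 to 6.65 and from 6.12 to 6.57. All 6 slow-fibre markers were negative with a median of -1.20, which was -0.79 without carnitine replicate 5, and 5 had an unadjusted p below 0.05. Their mean ran from 9.45 to 10.49 in control and from 6.95 to 10.28 in carnitine, a range far wider than that of any collagen gene. Their part in the collagen values was not tested either.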

How the data were processed

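Total RNA from 30 mg of gastrocnemius of 10 mice was measured on 10 arrays. The deposited values are log2 values with 2 decimals, made with RMA in Affymetrix Expression Console per the submitters' processing notes, whose version, like the genome build, is not given in the sources used here. This method sets the arrays to a shared scale and draws dim probe sets towards a floor, which shrinks their differences. Of 34390 probe sets, 23521 have 1 gene symbol in the platform annotation, 1814 several and 9055 are not listed. The brightest probe set per gene left 22180 genes, with no filter on dim signal.

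Diets were compared with limma 3.58.1 in R 4.3.3 (lmFit, eBayes with a mean-variance trend, two-sided, Benjamini-Hochberg over all genes), and single genes also by the exact two-sided permutation test over 252 assignments, which cannot go below 0.00794. Precision is limited by the number of arrays. Replicates are separate mice. The members and lists were chosen with earlier results of these data known. Shown in full were the 8 brightest genes, the 6 and 3 with the smallest p above and below the median level, and 12 fixed genes, 21 in all. In each list the 4 members with the smallest p could be named, with some markers besides. Alternatives were a replicate block, 2 scalings, a filter on dim genes, the mean of probe sets, no trend, array weights and omission of each array.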

Additional observations from a re-analysis of the deposited data

Results flagged for a closer look

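In 5 of the 88 groups of 5 mice (44 genes in 2 diets), 1 mouse stood apart from the other 4 by a gap of more than 0.71 of the group's range. Chance gives about 1 in 20. All 5 were carnitine mice. Carnitine replicate 5 was low for Col4a2, at 7.08 against 7.52 to 7.61 in the other carnitine mice, and for Col5a3, at 7.29 against 7.47 to 7.53. Carnitine replicate 1 was low for Col8a1, at 6.25 against 6.50 to 6.53, and for Col9a2, at 7.66 against 7.98 to 8.09. Carnitine replicate 4 was high for Col9a1, at 6.11 against 5.57 to 5.69.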

How the results depend on the processing

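Across 17 alternatives 0 collagen genes passed limma's adjusted p of 0.05, and the lowest adjusted p of a collagen gene was 0.39 (Col16a1 without control replicate 2). Of the 21 genes shown in full, 13 kept their sign in each alternative run on them, and the filter on dim genes left out 3 of these (Col6a4, Col10a1 and Col12a1). Median centring adds 0.05 to every difference, which by itself turned Col22a1 (0.006) and Col5a1 (0.034). Signs also turned with array weights in Col22a1 (0.0012) and Col5a1 (0.027), and after cyclic loess in Col15a1 (-0.0086), Col1a2 (-0.0076), Col4a1 (-0.013), Col6a1 (-0.0027) and Col6a2 (-0.024); the cause was not tested. The count of positive collagen genes was 17, but 28 after median centring and 30 with array weights, and both gave 0 genes lower at an unadjusted p below 0.05. With 1 array left out, 14 to 30 genes were positive (30 without control replicate 5), 0 to 1 were higher and 0 to 1 lower at an unadjusted p below 0.05, and 0 to 1 had groups that did not overlap (Col17a1 without carnitine replicate 4). The medians then ran from -0.044 to 0.028 over all collagen genes, -0.031 to 0.038 over fibrillar, -0.015 to 0.048 over basement membrane and -0.105 to 0.028 over other genes. Differences ran from -0.043 to 0.070 in Col15a1, -0.034 to 0.183 in Col3a1, -0.020 to 0.167 in Col4a1, -0.050 to 0.038 in Col5a1 and -0.0025 to 0.140 in Col6a2. Same-numbered mice did not deviate together in every pair (correlations of -0.13 to 0.24), so the numbers were not taken as pairs. With the replicate block the collagen counts were unchanged at 0 past the adjusted threshold, 17 positive and 1 lower at an unadjusted p below 0.05. The number of arrays and dim signal limit what can be seen.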
